A study of Mus musculus with 12 samples.

Results

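The genes described here encode the subunits and assembly factors of the proteasome, the protease complex that degrades ubiquitinated proteins, and their levels were compared in T cells of mice with and without the endoplasmic reticulum stress kinase PERK. The genes were those of the GRCm38 GENCODE M21 annotation whose symbols start with Psma, Psmb, Psmc, Psmd, Psme, Psmf or Psmg and that held 10 or more counts over the 12 libraries, after each row of the deposited count table had been assigned to a gene by its printed exon positions. Of 54 annotated genes with such symbols, 9 met this rule: Psma5, Psmb8, Psmb9, Psmc2, Psmd3, Psmd4, Psmd9, Psme2 and Psme4. They were 9 of 5910 genes with 10 or more counts assigned in this way.

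RNA was sequenced from mouse spleen T cells in 4 groups of 3 libraries each. The groups were WT and PERK-cKO T cells stimulated with allogeneic antigen-presenting cells, and WT and PERK-cKO T cells stimulated polyclonally through CD3 and CD28 with antibodies. According to the series design, allogeneic stimulation lasted 4 days and polyclonal stimulation 3 days, whereas a figure legend of the study gives the same length for both. Where the lengths differed, stimulation and time cannot be told apart. PERK-cKO mice (PERK-KO in the labels) carry floxed PERK alleles (PERK fl/fl), the product of Eif2ak3, and CD4-Cre on a C57BL/6 background, so that the deletion takes place in developing T cells of both the CD4+ and the CD8+ lineage. The allogeneic antigen-presenting cells were, in the study's methods, splenocytes depleted of T cells, and whether they were removed before RNA was extracted is not given in the sources used here, nor is the age of the mice. The study used mice of both sexes, and the sex behind each library is not given, though Y-linked counts, described below, were present in WT allogeneic libraries only. Replicates are not described as separate mice or cultures, so p-values measure the spread between these libraries.

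The core particle (20S) of the proteasome is a barrel of stacked rings, with alpha subunits forming the gate and beta subunits carrying the proteolytic sites. The regulatory particle (19S) caps the barrel: its lid removes ubiquitin, and its base recognizes, unfolds and feeds in the substrate. In lymphocytes and in cells exposed to interferon-gamma, the catalytic beta subunits are exchanged for the immunoproteasome subunits encoded by Psmb8, Psmb9 and Psmb10, and the PA28 activator encoded by Psme1 and Psme2 can replace the 19S cap. The immunoproteasome is known for producing peptides for MHC class I, and the proteasome is also the final step of endoplasmic reticulum-associated degradation (ERAD).

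The counts reached few of these genes. The exon positions in the table are those of GENCODE M27, which was built on GRCm39, whereas the labels name mm10 as the genome build. Each row (entry) therefore carries a gene name that need not belong to the sequence at its printed position, and counts were used under the gene whose GRCm38 exons lay at that position (placed counts). Of the 54 entries listed under proteasome symbols, 23 lay over no exon, 29 lay over other genes only, and 2 (Psmd1 and Psme4) touched their own gene together with further genes. The entry listed as Psmb10, for example, lay over Cdh1, and that listed as Psmd4 over Selenbp1. No value below is taken from an entry because of its name, and none of the 12 entries behind the 9 genes was listed under the name of its gene.

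The 54 annotated genes comprised 49 genes of 7 subunit lists, the meiotic gene Psmc3ip, which shares only the first letters, and 4 pseudogenes. Members were found in 6 of the 7 lists. The alpha ring was represented by Psma5 alone of 8 genes, and the constitutive beta ring by 0 of 7. Of the 4 immunoproteasome and thymoproteasome beta subunits, Psmb8 and Psmb9 had placed counts, and Psmb10 and the thymic Psmb11 had none. The 19S base contributed Psmc2 and Psmd4 of 9 genes and the lid Psmd3 of 8. Among 6 activators and inhibitors, Psme2 and Psme4 were members, and Psme1 had no entry over its exons. Psmd9 was the only member of 7 assembly factors. Psmd1 had 1 placed count and stayed below the minimum, 17 genes had only entries shared with other genes or shorter than the minimum overlap, and 27 had no entry over any exon. Nothing is said here of the level of these 45 genes.

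**Figure D1:**
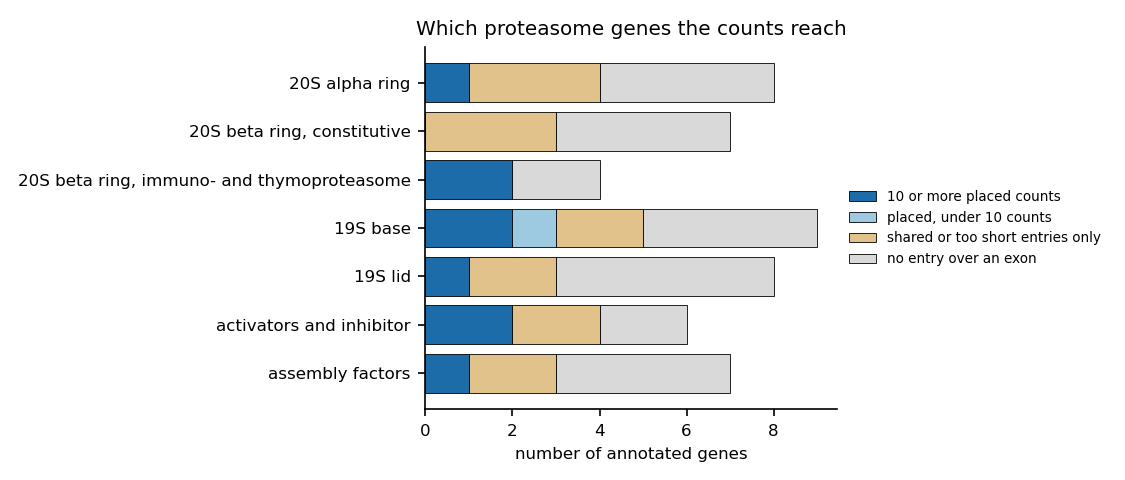
Number of annotated genes (horizontal axis) in each of the 7 subunit lists, split by whether the deposited counts reached them. Psmb8 and Psmb9 are 2 of the 4 immunoproteasome and thymoproteasome genes, and none of the 7 constitutive beta genes could be measured.

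What was counted differed from gene to gene. The entry behind Psmb8 (AA388235 in the table) covered 420 bases of Psmb8 exons on chromosome 17, at chr17:34200468-34200697 and chr17:34201265-34201454, of which 190 bases were UTR and 230 bases belonged only to transcripts that retain an intron. The other 297 of its 717 bases lay outside Psmb8, and the whole entry lay inside the span of Gm20496. The entry behind Psmb9 (Vps52) overlaid 463 bases of Psmb9 exons, 172 of them coding, and a further 2588 of its 3967 bases lay outside the gene. Psmd4 was measured over 1173 bases, 496 of them coding, of an entry of 1717 bases (Tmod4), and Psme2 over 566 bases, 220 of them coding, of an entry of 907 bases (Gm6852). Psmd3 was measured by 2 entries that overlap by 73 bases, Psme4 by 3 entries, and Psmd9 by 1373 bases of UTR at the 3′ end of the gene. Psmc2 rested on exactly the minimum overlap of 50 bases of UTR in an entry whose other 758 bases lay outside the gene, so that its values may hold reads of other sequence. The values of the other genes, Psmb8 and Psmb9 among them, may do so too, as their entries also reach outside their exons. Psma5 rested on 64 coding bases and 71 counts in all. Psmb8, Psmc2 and Psmd9 had no coding base in their entries.

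**Figure D2:**
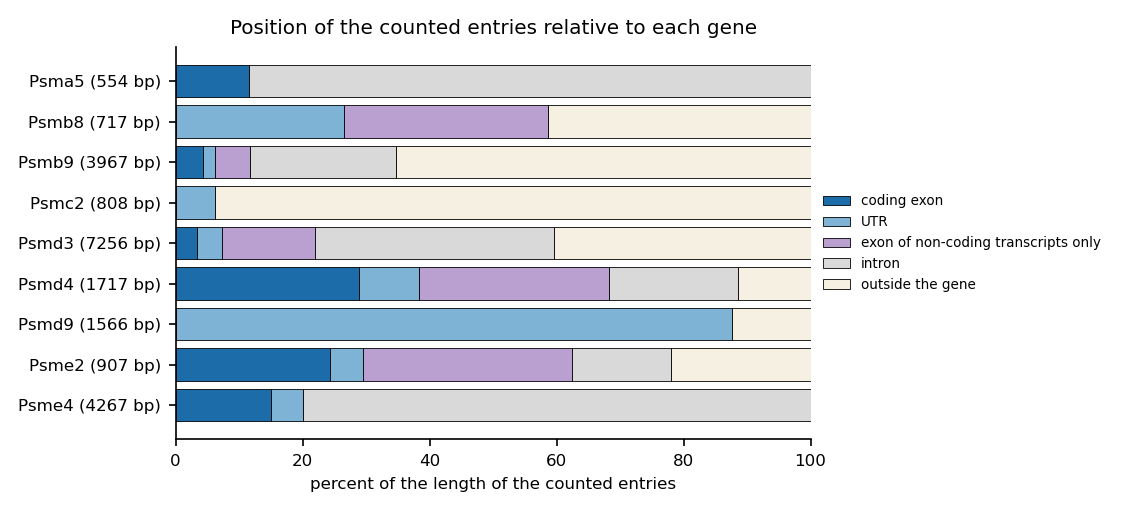
Composition of the counted entries for each of the 9 genes, as percent of the entries' length (horizontal axis, total length in bp beside each gene). Coding exon is absent for Psmb8, Psmc2 and Psmd9, and the Psmc2 entry lies almost wholly outside the gene.

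Some of the coding stretches inside the counted entries of Psmb9, Psmd4 and Psme2 are shown, to give examples of the transcript sequence that those entries overlaid. Counts are given per entry, so how many fell on each stretch is not known. They were read on the coding strand, 5′ to 3′, from GENCODE M21 transcripts (GRCm38); all 3 genes lie on the minus strand. The positions are chr17:34184263-34184366 and chr17:34185730-34185797 for Psmb9, chr3:95032826-95032984 and chr3:95033633-95033764 for Psmd4, and chr14:55587654-55587740 for Psme2.
Psmb9, first stretch: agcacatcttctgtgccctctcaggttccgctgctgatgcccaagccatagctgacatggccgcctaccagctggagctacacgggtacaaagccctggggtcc
Psmb9, second stretch: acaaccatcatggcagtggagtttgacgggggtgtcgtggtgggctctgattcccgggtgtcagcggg
Psmd4, first stretch: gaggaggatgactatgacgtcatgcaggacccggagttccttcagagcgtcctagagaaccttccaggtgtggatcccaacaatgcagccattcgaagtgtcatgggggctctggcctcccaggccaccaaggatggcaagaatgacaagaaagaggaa
Psmd4, second stretch: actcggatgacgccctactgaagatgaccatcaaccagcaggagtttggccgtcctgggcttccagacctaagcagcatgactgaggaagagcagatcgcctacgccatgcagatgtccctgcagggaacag
Psme2: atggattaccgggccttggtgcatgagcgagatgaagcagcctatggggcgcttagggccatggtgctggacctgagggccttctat

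The 250 bases before the annotated start were searched in the RefSeq promoters (GRCm38.p6) of the 8 members that had one, on both strands, and set against all 32851 promoters. The promoters of the 3 genes that passed a test below are shown with matches in capitals. In Psmb8 (chr17:34197945-34198194, plus strand) the capitals mark TTCNNNGAA, the interferon-gamma activated site, 97 bases before the start. In Psmb9 (chr17:34187331-34187580, minus strand) they mark GGGCGG, the GC box, and CCAAT on the opposite strand. In Psmd4 (chr3:95042615-95042864, minus strand) they mark CCAAT and the core of the interferon-stimulated response element (GAAA, any 2 bases and GAAA again), both on the opposite strand.
Psmb8 promoter: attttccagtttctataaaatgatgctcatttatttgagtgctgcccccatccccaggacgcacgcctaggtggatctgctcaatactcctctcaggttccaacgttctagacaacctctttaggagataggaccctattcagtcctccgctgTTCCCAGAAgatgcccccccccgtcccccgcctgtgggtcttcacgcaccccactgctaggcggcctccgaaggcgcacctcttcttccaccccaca
Psmb9 promoter: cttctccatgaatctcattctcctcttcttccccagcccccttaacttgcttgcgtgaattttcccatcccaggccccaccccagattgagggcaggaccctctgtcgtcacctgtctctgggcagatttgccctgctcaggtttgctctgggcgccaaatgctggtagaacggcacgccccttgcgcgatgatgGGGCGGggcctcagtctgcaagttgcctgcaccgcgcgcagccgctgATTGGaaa
Psmd4 promoter: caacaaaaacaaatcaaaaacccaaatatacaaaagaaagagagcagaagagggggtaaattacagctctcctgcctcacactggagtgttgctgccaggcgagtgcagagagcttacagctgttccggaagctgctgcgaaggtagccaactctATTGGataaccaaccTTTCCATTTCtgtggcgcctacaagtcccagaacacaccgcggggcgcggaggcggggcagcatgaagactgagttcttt

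TTCNNNGAA was held by 7.02% of all promoters and among the members by Psmb8 alone. The interferon-stimulated response element core was held by 2.98% of all promoters and by Psmd4 and Psmd9. CCAAT, in 33.9% of all promoters, was found in Psmb9, Psmc2 and Psmd4, and GGGCGG, in 32.7%, in Psmb9, Psmd9, Psme2 and Psme4. Of the remaining motifs searched, TGACNNNGC, the core of the antioxidant response element, was held by 10.2% of all promoters and by Psmd9, where it overlaps the GC box, and GGGANTTCC, a kappaB core, was in 1.43% of all promoters and in 0 of the 8. These are matches of letters only and say nothing of binding.

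Total counts per library ranged from 3132702 to 4631908, of which 1568631 to 2327859 (49.46% to 51.98%) were placed on a gene. Levels are given below as CPM, a gene's placed counts relative to the placed total of its library after scaling by edgeR's TMM factors, and 3 counts corresponded to 1.29 to 1.91 CPM. Several libraries stood apart in ways that the design does not name. WT polyclonal replicate 1 differed from replicates 2 and 3 by 54.4 and 61.3 times the sampling noise (chi-square per degree of freedom over genes), against 10.49 between replicates 2 and 3. Without it, the log2 changes called below were 0.33 for Psmd4 in polyclonal T cells (adjusted p = 0.0235, edgeR), 0.54 for Psmb8 and 0.50 for Psmb9 between stimulations in WT, and -0.41 for the Psmb8 interaction (adjusted p = 0.0108), and each still passed. All 4 Y-linked genes on the list (Ddx3y, Eif2s3y, Kdm5d and Uty) summed to 2091 to 2487 CPM in the WT allogeneic libraries and were at 0 in each of the other 9 libraries. RNA of male cells was thus seen in WT allogeneic libraries only, and sex cannot be told apart from group in the comparisons that hold these libraries. PERK-cKO allogeneic libraries carried the macrophage gene Lyz2 at 969 ± 107 CPM (mean ± SD, n = 3), against 54.3 ± 8.12 in WT allogeneic libraries and 0 to 2 counts in each polyclonal library. Over the 5 macrophage and monocyte markers that were placed, of 14, the summed level was 1605 to 1815 CPM in PERK-cKO allogeneic, 234 to 271 in WT allogeneic and 102 to 139 in polyclonal libraries. The basophil protease gene Prss34 stood at 2123 ± 114 CPM in PERK-cKO allogeneic and 93.7 ± 6.31 CPM in WT allogeneic libraries, and the B cell gene Ms4a1 at 148 ± 14.3 and 59.2 ± 8.68 CPM. Of 16 T cell markers 8 were placed, none of them a CD3 chain, and their summed level was 6968 to 7048 CPM in WT allogeneic, 6022 to 6616 in PERK-cKO allogeneic, 4788 to 4931 in WT polyclonal and 6008 to 6334 in PERK-cKO polyclonal libraries. The targeted gene Eif2ak3 was lower in PERK-cKO than in WT allogeneic libraries (66.4 to 73.6 against 91.2 to 106 CPM; log2 fold change -0.49, adjusted p = 0.00756, edgeR) and did not pass in polyclonal libraries (45.3 to 51.0 against 44.1 to 79.8 CPM; adjusted p = 0.171); whether the counted stretch lies in the deleted exons is not given in the sources used here.

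The 9 genes together held 0.416% ± 0.014 of placed counts in WT allogeneic, 0.415% ± 0.030 in PERK-cKO allogeneic, 0.318% ± 0.029 in WT polyclonal and 0.374% ± 0.015 in PERK-cKO polyclonal libraries (mean ± SD, n = 3). Psmb8 and Psmb9 supplied most of these counts.

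Psmb8 encodes LMP7, the immunoproteasome subunit with chymotrypsin-like activity. Its levels were 1526, 1445 and 1543 CPM in WT allogeneic, 1298, 1339.6 and 1214 CPM in PERK-cKO allogeneic, 1056, 1037 and 987 CPM in WT polyclonal, and 1159.8, 1126 and 1149.6 CPM in PERK-cKO polyclonal libraries. All 4 groups were apart from each other without overlap: WT allogeneic was the highest, followed by PERK-cKO allogeneic, PERK-cKO polyclonal and WT polyclonal. PERK-cKO was thus below WT after allogeneic and above WT after polyclonal stimulation in each library. How many of all genes were apart in this way was not counted.

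Psmb9 encodes LMP2, the immunoproteasome subunit that takes the place of the caspase-like beta subunit. It was measured at 1555, 1608 and 1746 CPM in WT allogeneic and at 1724, 1871 and 1541 CPM in PERK-cKO allogeneic libraries. After polyclonal stimulation the levels were 1105, 1159 and 1099 CPM in WT and 1254, 1158 and 1176 CPM in PERK-cKO. Every allogeneic library lay above every polyclonal library, and the genotypes overlapped under both stimulations.

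In the 19S base, Psmd4 encodes the ubiquitin receptor Rpn10 and Psmc2 an ATPase of the unfolding ring. Psmd4 was at 695, 694 and 712 CPM in WT allogeneic, 784, 784 and 679 CPM in PERK-cKO allogeneic, 612, 616 and 664 CPM in WT polyclonal, and 894, 774 and 821 CPM in PERK-cKO polyclonal libraries. The polyclonal groups did not overlap, with PERK-cKO above WT, whereas the allogeneic groups did. Psmc2 spanned 72.8 to 122 CPM over the 12 libraries with overlap between the groups of every comparison. In the lid, Psmd3, which encodes the scaffold subunit Rpn3, spanned 186 to 281 CPM, and its PERK-cKO polyclonal libraries (236 to 281 CPM) lay above its WT polyclonal ones (186 to 229 CPM). The entry Gm12359 gave Psmd3 means of 69.8 CPM in WT and 92.5 CPM in PERK-cKO polyclonal libraries, and the entry Msl1 gave 145 and 160 CPM.

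Of the activators, Psme2 encodes the beta subunit of PA28 and Psme4 encodes PA200. Psme2 had 27 to 89 counts per library, with 29.5, 30.5 and 25.8 CPM in WT allogeneic, 38.2, 41.2 and 36.5 CPM in PERK-cKO allogeneic, 25.2, 19.4 and 14.01 CPM in WT polyclonal, and 25.9, 27.99 and 31.8 CPM in PERK-cKO polyclonal libraries. PERK-cKO lay above WT under both stimulations, and allogeneic above polyclonal in WT and in PERK-cKO. Psme2 has close copies in the mouse genome, among them Psme2b, which had no placed counts, so reads may be split between them. Psme4 spanned 17.4 to 38.9 CPM, with the highest value in 1 PERK-cKO allogeneic library and the other 2 of that group at 22.6 and 23.6 CPM.

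The assembly chaperone gene Psmd9 spanned 28.5 to 61.7 CPM and overlapped between the groups of every comparison. Psma5, a gate subunit of the alpha ring, had 1 to 14 counts per library, up to 6.001 CPM, and passed edgeR's low-count filter only in the fit of all 12 libraries.

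**Figure D3:**
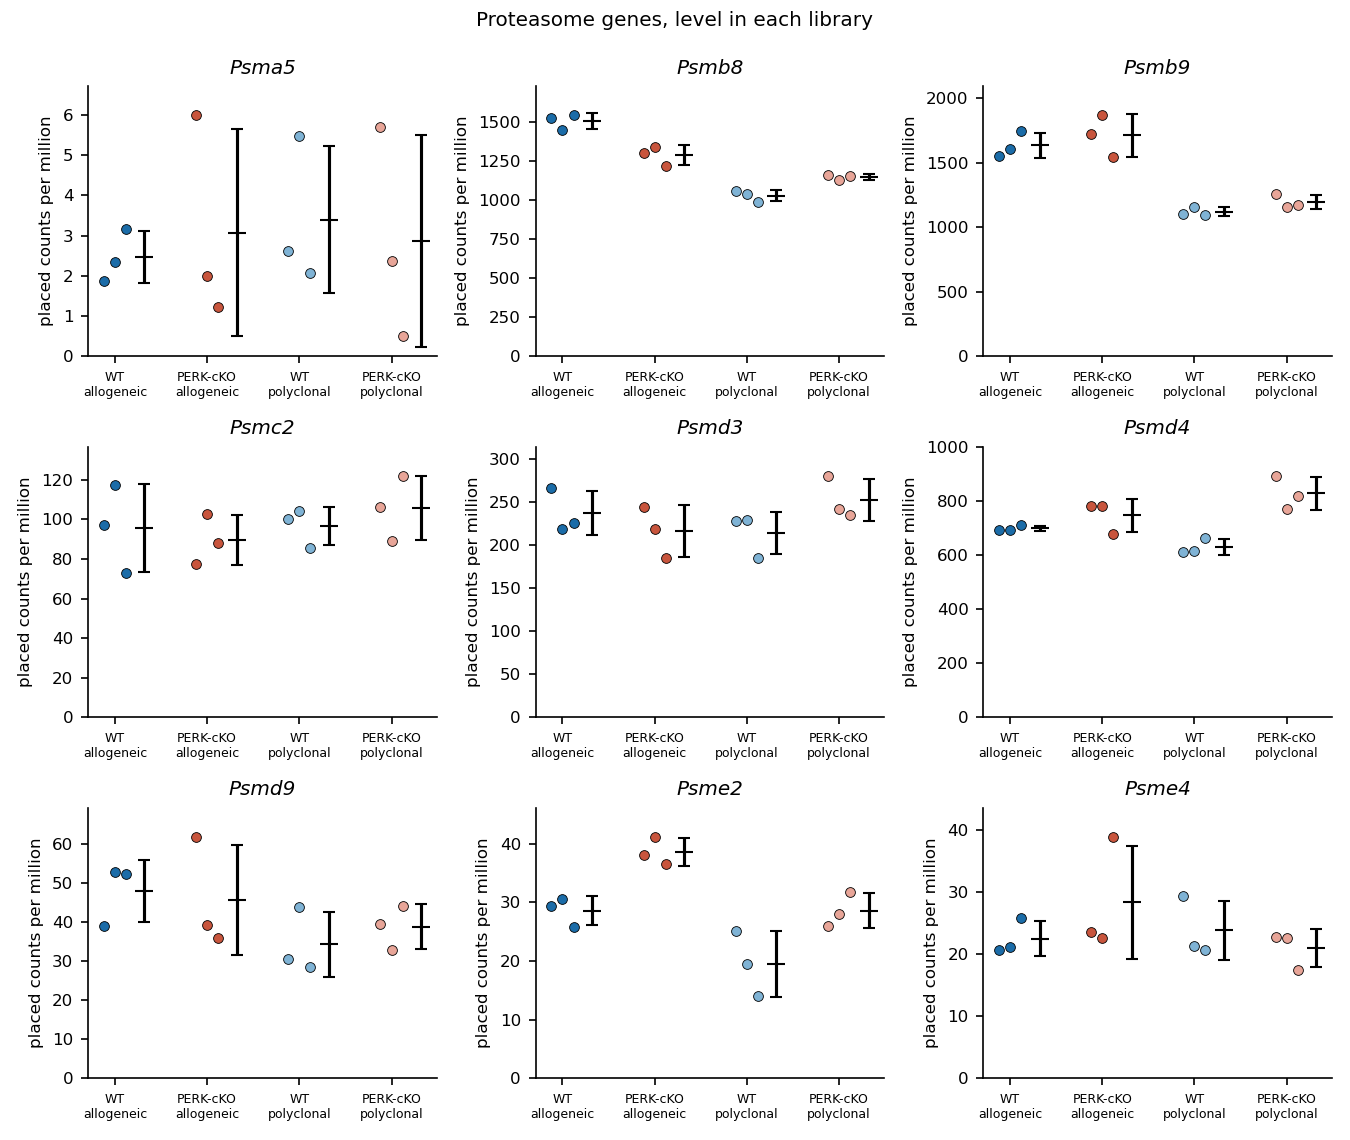
Level of each of the 9 proteasome genes in CPM of placed counts (vertical axis, from 0), with 1 point for each library in the 4 groups and the mean ± SD of 3 libraries beside it. Psmb8 and Psmb9 are higher in every allogeneic than in every polyclonal library, and Psmd4 is higher in each PERK-cKO than in each WT polyclonal library.

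The first comparison asked whether loss of PERK changed these genes in allogeneic T cells. None of the 8 genes tested passed in edgeR's quasi-likelihood test (adjusted p under 0.05 over all genes tested), against 33.2% of all 4096 genes, 18.5% higher and 14.7% lower in PERK-cKO. At an unadjusted p under 0.05 there were 2 genes, Psmb8 and Psme2, and DESeq2 called 1. Psmb8 had a log2 fold change of -0.23 (SE 0.088, adjusted p = 0.0508), and DESeq2 gave -0.23 with an adjusted p of 0.0275. Psme2 had a log2 fold change of 0.44 (SE 0.20, adjusted p = 0.0960), and Psmb9 one of 0.07 (SE 0.095, adjusted p = 0.635). The median over the 8 genes was 0.01 on the log2 scale, beside -0.02 over all genes. The log2 fold changes of the other members lay between -0.12 (Psmd3) and 0.31 (Psme4). Without PERK-cKO allogeneic replicate 3, which held the highest Psme4 level, Psme4 stood at 0.03. Of 6 T cell markers tested, 4 were lower in PERK-cKO. Scaled to T cell markers, Psmd4 (0.25, adjusted p = 0.0356) and Psme2 (0.59, adjusted p = 0.0293) passed as higher and Psmb8 stood at -0.08, with the median of all genes at 0.13. The WT libraries of this comparison are those with Y-linked counts, and the PERK-cKO libraries those with the highest levels of Lyz2, Prss34 and Ms4a1; the part of these in the values was not tested. In RNA from many cells, fewer cells of a type and less RNA per cell cannot be told apart.

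After polyclonal stimulation, Psmd4 was higher in PERK-cKO than in WT T cells. Its log2 fold change was 0.38 (SE 0.082, 1.30-fold, adjusted p = 0.00224, edgeR), higher in 3 of 3 libraries than in any WT library. This was 1 of 8 genes tested, against 31.8% of all 3941 genes, 16% higher and 15.8% lower, and the change was larger in size than that of 58.9% of them. The macrophage and monocyte markers, mostly Ctss, summed to like levels in these groups (107 to 139 against 102 to 113 CPM). PERK-cKO was higher in the summed T cell markers, as given above, with Thy1 at 3394 against 2162 CPM. Of the 8 T cell markers, 3 were called higher and 1 lower, and Cd5 stood at 390 against 576 CPM. The 3 NK cell markers that were placed also summed to more in PERK-cKO (45.1 to 50.1 against 5.98 to 8.82 CPM). The part of all these markers in the values was not tested. Scaled to the T cell markers, which moved the median of all genes to -0.32, Psmd4 stood at 0.05, or 0.38 above that median, and did not pass. At an unadjusted p under 0.05 there were 3 genes, namely Psmd4, Psmd3 (0.23, SE 0.11, adjusted p = 0.120) and Psme2 (0.53, SE 0.24, adjusted p = 0.105). Psmd3 stood at 0.12 without PERK-cKO replicate 1 and at 0.13 without WT replicate 3, and Psme2 at 0.34 without WT replicate 3. Psmb8 gave 0.14 (SE 0.074, adjusted p = 0.162) and Psmb9 gave 0.08 (SE 0.075, adjusted p = 0.461). The median over the 8 genes was 0.15 on the log2 scale, beside 0.00 over all genes, with 7 of the 8 values above 0 and Psme4 at -0.20. Scaled to T cell markers, 2 of the 8 were above 0, and Psmb8 (-0.18, adjusted p = 0.0465) and Psmb9 (-0.25, adjusted p = 0.00971) passed as lower in PERK-cKO.

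Between stimulations, Psmb8 and Psmb9 were higher in allogeneic than in polyclonal WT T cells, and Psmb10 was not measured. Psmb8 rose by 0.52 on the log2 scale (SE 0.075, 1.43-fold, adjusted p = 8.22e-05, edgeR) and Psmb9 also by 0.52 (SE 0.079, 1.43-fold, adjusted p = 0.00013), each in 3 of 3 libraries. They were the 2 genes called of 8 tested, both higher, against 48.6% of all 3988 genes, 24.5% higher and 24.1% lower, so that the members were called higher about as often as all genes. Either change was larger in size than that of 56.9% (Psmb8) or 56.5% (Psmb9) of all genes. Psmd9 (0.46, SE 0.20, adjusted p = 0.0767) and Psme2 (0.52, SE 0.24, adjusted p = 0.0907) did not pass. The subunits of the regulatory particle did not pass with TMM scaling, with Psmc2 at -0.05, Psmd3 at 0.11 and Psmd4 at 0.12. The median over the 8 members was 0.29 on the log2 scale, beside -0.02 over all genes. Psmd9 passed in 2 and Psme2 in 1 of the 6 fits that left out a library, and each passed in 1 further alternative. The allogeneic WT libraries were also higher in markers of other cells, with log2 differences of 9.63 for Lyz2, 7.30 for Prss34 and 3.69 for Ms4a1, and held the Y-linked counts; the part of these in the values was not tested. The summed T cell markers were higher in these libraries too. With libraries scaled to those markers, the median of all genes moved to -0.51, and Psmb8 and Psmb9 stood at 0.02 each and did not pass, which is 0.54 and 0.53 above that median. Under that scaling Psmc2 (-0.55), Psmd3 (-0.38), Psmd4 (-0.38) and Psme4 (-0.60) passed as lower, at -0.03, 0.13, 0.14 and -0.09 relative to the median.

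In PERK-cKO T cells, Psmb9 was higher after allogeneic stimulation by 0.51 on the log2 scale (SE 0.087, 1.43-fold, adjusted p = 8.09e-05, edgeR), in 3 of 3 libraries. This was 1 of 8 genes tested, against 51.4% of all 4162 genes, 27.7% higher and 23.8% lower. Psmb8 gave 0.16 (SE 0.080, adjusted p = 0.0979) although its groups did not overlap, and Psme2 gave 0.44 (SE 0.19, adjusted p = 0.0614). The regulatory particle genes were negative, with Psmc2 at -0.25 (SE 0.14), Psmd3 at -0.22 (SE 0.11) and Psmd4 at -0.15 (SE 0.090), and none of them passed, although Psmd3 and Psmd4 did under some alternatives. The median over the 8 genes was 0.20, beside 0.00 over all genes. Macrophage, basophil and B cell markers were higher in the allogeneic libraries of this comparison too, and their part in the values was not tested. The 4 pairwise comparisons share groups of libraries, so that their values are not independent of each other.

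**Figure D4:**
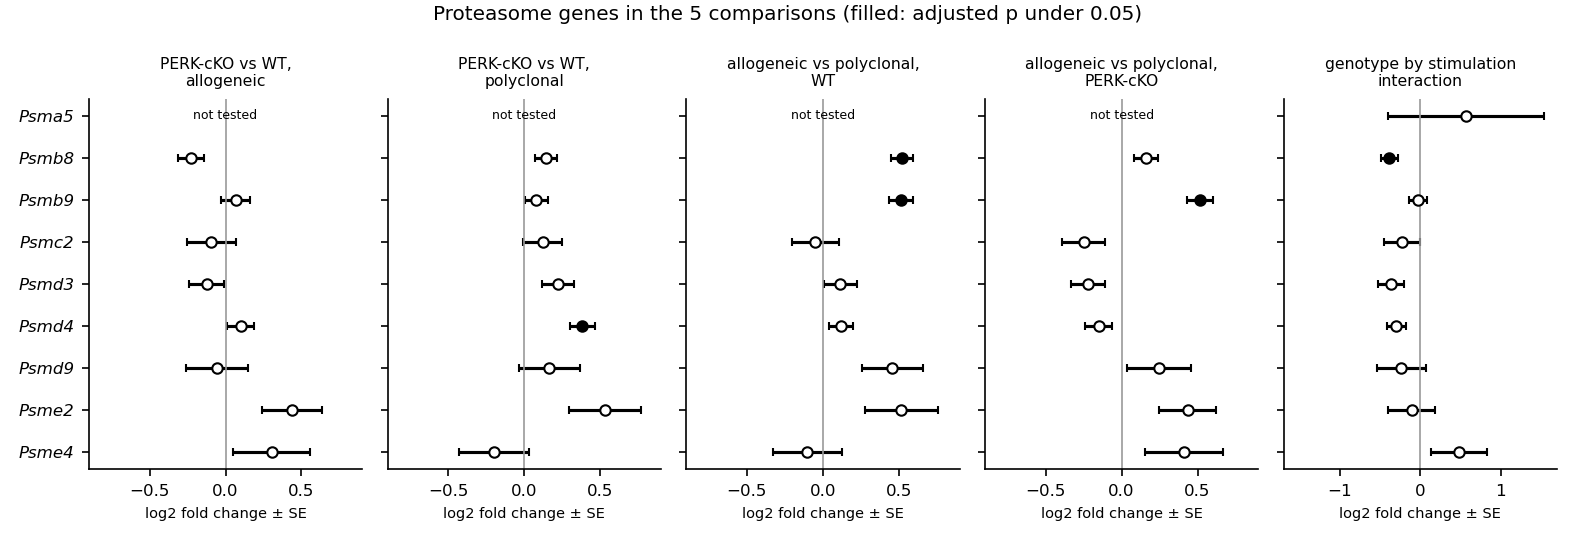
Log2 fold change ± SE (horizontal axis) of the 9 proteasome genes in the 4 pairwise comparisons and the interaction, with filled symbols for adjusted p under 0.05 (edgeR). Psmd4, Psmb8 and Psmb9 carry the filled symbols, and with libraries scaled to T cell markers those of Psmd4, of Psmb8 and of Psmb9 in WT would be open and the Psmb8 interaction would change sign, with the median of all genes moved to -0.32, -0.51 and 0.50 in these comparisons.

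Whether the genotypes differed in their response to the stimulus was tested with an interaction term in all 12 libraries. Psmb8 was the 1 gene called of 9 tested, against 33.8% of all 4406 genes, 16.7% with a positive and 17.2% with a negative term. The effect of PERK loss on Psmb8 was lower by 0.39 on the log2 scale after allogeneic than after polyclonal stimulation (log2 difference -0.39, SE 0.11, adjusted p = 0.00642, edgeR, fitted to all 12 libraries), whereas with libraries scaled to T cell markers the term was 0.11 with the median of all genes at 0.50, or -0.40 relative to that median, and no longer passed (adjusted p = 0.426). In size the term exceeded that of 38.1% of all genes. Psmb9, which lies near Psmb8 on chromosome 17, had an interaction term of -0.03 (SE 0.12, adjusted p = 0.876), whose sign was reversed in 6 of 9 alternatives other than leaving out a library, among them T cell marker scaling, where it was 0.46 and passed (adjusted p = 0.00203). Psmd4 (-0.30, SE 0.12, adjusted p = 0.0559) and Psmd3 (-0.36, SE 0.17, adjusted p = 0.0962) had an unadjusted p under 0.05 but did not pass. Psme4 gave 0.49 (SE 0.35, adjusted p = 0.306), Psmc2 gave -0.23 (SE 0.22, adjusted p = 0.462), and Psma5, at its low counts, 0.57 (SE 0.97, adjusted p = 0.702). The difference between the terms of Psmb8 and Psmb9 was not tested. The WT allogeneic libraries with Y-linked counts and the PERK-cKO allogeneic libraries with macrophage and basophil markers both enter this term. T cell markers moved with it, 6 of 8 having called negative terms (median -0.51), as did the NK cell gene Klrd1 (-1.35). The part of these in it was not tested.

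Genes that act with the proteasome but are no members were counted from 5 lists of 43 symbols, older names included, of which 13 were placed and tested. In allogeneic T cells, 4 of the 13 were higher and 1 lower in PERK-cKO, against 18.5% and 14.7% of all genes, led in size by the MHC class I gene H2-K1 (0.69, SE 0.10), the MHC class I transactivator gene Nlrc5 (0.49, SE 0.092) and Nfe2l1 (0.31, SE 0.095), which encodes the transcription factor that restores proteasome genes when the proteasome is inhibited. In this comparison Lyz2 (log2 fold change 4.16) and Prss34 (4.51) were higher in PERK-cKO as well, and their part in these values was not tested. In polyclonal T cells, 5 were higher and 1 lower in PERK-cKO, against 16% and 15.8% of all genes. The largest were the ubiquitin-ribosomal fusion gene Rps27a (-0.66, SE 0.15), the peptide-trimming aminopeptidase gene Erap1 (0.61, SE 0.094) and the ubiquitin shuttle gene Ubqln4 (0.59, SE 0.15). Reads of Rps27a and H2-K1 may be split with close copies of these genes.

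Between allogeneic and polyclonal WT T cells, 3 of the 13 were higher and 3 lower, against 24.5% and 24.1% of all genes. They were led by Tap2 (0.85, SE 0.080), which encodes a subunit of the transporter that carries proteasome products into the endoplasmic reticulum, by Nfe2l1 (-0.81, SE 0.092) and by Rps27a (-0.80, SE 0.17). In PERK-cKO, 3 were higher and 6 lower after allogeneic stimulation, against 27.7% and 23.8% of all genes, led by Ubqln4 (-1.04, SE 0.18), H2-K1 (0.77, SE 0.090) and Tap2 (0.75, SE 0.082). The interaction called 1 positive and 3 negative terms, against 16.7% and 17.2% of all genes, with H2-K1 at 0.85 (SE 0.11), Erap1 at -0.77 (SE 0.14) and Ubqln4 at -0.75 (SE 0.24). By list, the interaction called 0 of 2 further subunit and maturation genes (Sem1 and Akirin2), 0 of 1 ubiquitin gene, 2 of 5 shuttles and bound enzymes (Rad23b and Ubqln4), 0 of 1 transcription factor and 2 of 4 genes of peptide loading and MHC class I. Macrophage, basophil and B cell markers were higher in the allogeneic libraries of WT and of PERK-cKO, and T cell markers moved with the interaction, as given above. The part of these markers in the values was not tested.

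**Figure D5:**
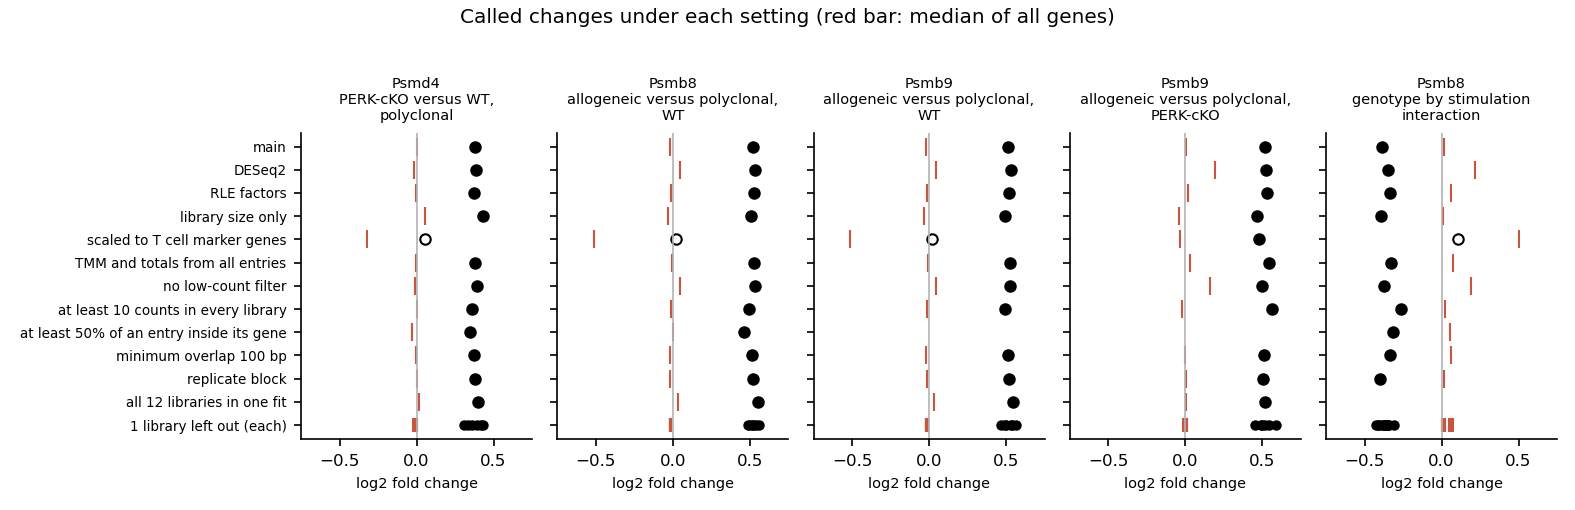
Log2 fold change (horizontal axis) of the 5 called changes under each setting (rows), with filled points for adjusted p under 0.05 and red bars for the median of all genes. Scaling to T cell markers moves points and red bars by about the same amount, as any rescaling does, and there Psmd4, Psmb8 and Psmb9 in WT lose the call and the Psmb8 interaction changes sign.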

How the data were processed

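Gene counts were deposited as 1 table for the 12 libraries. Per the file headers, the authors made the counts with featureCounts 2.0.1 on paired reads over exons grouped by gene name (GENCODE M27), without a strand setting; the labels name mm10, and the aligner is not given in the sources used here. Exon positions of 53762 entries were laid as printed on GENCODE M21 exons, and entries over exons of exactly 1 gene (50 bp or more, small RNAs aside) were summed per gene: 13393 entries and 50.45% of counts were placed, and 1.85% of counts lay on entries over no exon. Differential expression was tested on placed counts of all genes with edgeR 4.0.16 (TMM, filterByExpr, quasi-likelihood F test, Benjamini-Hochberg adjustment) in R 4.3.3, for 2 genotype comparisons and 2 stimulation comparisons of 6 libraries each and for their interaction in 12. DESeq2 1.42.0, other scalings, filters, placements, a replicate block and leaving out each library were tried as alternatives. Scripts were tested on simulated data. Members, gene lists and tests were chosen with earlier results of these data known. Named were all members, and of other pathway genes up to 3 called in each comparison with the largest change. Libraries of a group differed by 3.88 to 61.3 times the sampling noise (chi-square per degree of freedom), and WT polyclonal replicate 1 stood apart, so that no 2 were the same library.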

Additional observations from a re-analysis of the deposited data

Results flagged for a closer look

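The genotype effect on Psmb8 differed between the stimulations, which is why it is listed here. The interaction term was -0.39 on the log2 scale (SE 0.11, adjusted p = 0.00642, edgeR). PERK-cKO lay below WT in 3 of 3 allogeneic libraries and above WT in 3 of 3 polyclonal ones. With TMM scaling, neither genotype effect passed within its own stimulation (adjusted p = 0.0508 allogeneic and 0.162 polyclonal, edgeR). With libraries scaled to T cell markers the term was 0.11 (adjusted p = 0.426, edgeR) while the median term of all genes moved to 0.50, and the polyclonal change of Psmb8 turned from 0.14 to -0.18 and passed as lower in PERK-cKO (adjusted p = 0.0465, edgeR). A rescaling moves all genes by about the same amount, so a gene's distance from the median cannot tell which scaling is right. The entry behind it covers a retained intron and UTR of Psmb8 and no coding base. In 2 further entries over Psmb8 exons, shared with other genes and left out, the PERK-cKO allogeneic mean was not below WT, as given below. The WT allogeneic libraries carried Y-linked counts and the PERK-cKO allogeneic libraries macrophage and basophil markers. Of the 8 T cell markers placed, 6 had called negative terms (median -0.51 over the list), among them Lck (-0.80) and Thy1 (-0.60), as did the NK cell gene Klrd1 (-1.35). The part of all these in the term was not tested.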

How the results depend on the processing

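Scaling to T cell markers moved the most values. Members called became 2 (PERK-cKO against WT, allogeneic), 2 (polyclonal), 4 (allogeneic against polyclonal, WT), 2 (PERK-cKO) and 2 (interaction). These were Psmd4 (0.25) and Psme2 (0.59) as higher, Psmb8 and Psmb9 as lower in PERK-cKO and thus against the TMM direction, Psmc2 (-0.55), Psmd3, Psmd4 and Psme4 (-0.60) as lower, Psmb9 (0.48) as higher with Psmd3 (-0.26) as lower, and Psmb9 with Psme4 (0.98) as positive terms. The log2 fold change of Psmd4 in polyclonal T cells (0.05) and of Psmb8 and Psmb9 in WT (0.02 each) no longer passed, nor did the Psmb8 interaction. Directions reversed for Psmc2 (0.059), Psmd3 (0.022) and Psmd9 (0.083) in allogeneic T cells, for Psmb8 (-0.18), Psmb9 (-0.25), Psmc2 (-0.20), Psmd3 (-0.10) and Psmd9 (-0.16) in polyclonal T cells, for Psmd3 (-0.38), Psmd4 (-0.38) and Psmd9 (-0.041) between stimulations in WT, and for the interaction of Psmb8 (0.11), Psmb9 (0.46), Psmc2 (0.26), Psmd3 (0.12), Psmd4 (0.19), Psmd9 (0.24) and Psme2 (0.38). That scaling moved the median of all genes to 0.13, -0.32, -0.51, -0.03 and 0.50 in the 5 comparisons. Under the other alternatives, 357 of 373 values kept direction and side of the threshold. In allogeneic T cells 1 member passed with DESeq2, with a minimum overlap of 100 bp and with all 12 libraries in one fit, each time Psmb8 at -0.23. Requiring 50% of an entry inside its gene left 1 called in WT, where Psmb9 had no value, and in PERK-cKO, where it had none either, the 1 called was Psmd4 as lower (-0.20, adjusted p = 0.0422, edgeR). In PERK-cKO, totals from all entries called 2 (adding Psme2) and a minimum of 10 counts in every library called 3 (adding Psmb8 and Psme2). The interaction of Psmb9 reversed with DESeq2 (0.011), RLE factors (0.022), totals from all entries (0.032), 10 counts in every library (0.095) and 100 bp (0.025), and that of Psme2 with 10 counts (0.016).

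Same-numbered libraries did not deviate together (correlations -0.098 to 0.098 over 12 pairs). Whether they came from the same mouse or batch cannot be told from this. With the replicate number as a block, 0, 1, 2, 1 and 2 members were called in the 5 comparisons, the added one being the Psmd3 interaction (-0.38, adjusted p = 0.0376, edgeR).

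Leaving out each library gave 0 to 0, 1 to 1, 2 to 3, 1 to 2 and 1 to 2 members called, and no called member lost its call. In WT, Psmd9 passed without allogeneic replicate 1 (0.59) or polyclonal replicate 2 (0.67) and Psme2 without polyclonal replicate 1 (0.73), and Psme2 fell to 0.32 without polyclonal replicate 3. Psmd9 also passed with no low-count filter (0.47, adjusted p = 0.0414) and Psme2 with all 12 libraries in one fit (0.55, adjusted p = 0.0447, edgeR). In PERK-cKO, 2 were called without allogeneic replicate 1 (Psmd3 -0.32). In the interaction, 2 were called without PERK-cKO polyclonal replicate 2 or WT polyclonal replicate 3 (Psmd4 -0.36 and -0.34). Directions changed for Psmc2 (-0.26 to 0.076) and Psmd9 (-0.35 to 0.080) in allogeneic T cells, for Psmc2 (-0.21 to 0.12) and Psme4 (-0.22 to 0.069) in WT, for Psmd9 (-0.048 to 0.38) in PERK-cKO, and for the interaction of Psma5 (-0.36 to 1.63), Psmb9 (-0.060 to 0.082) and Psme2 (-0.33 to 0.078). Psma5, with 71 counts in all, had the fewest counts of the members.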

Other observations

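Entries shared between a proteasome gene and further genes were left out of every comparison. The one with the most counts among the subunit genes lay over Psmb8 and Tap1 (35052 counts over the 12 libraries, with 53 bases on Psmb8), followed by one over Psme3 and Aoc2 (26700 counts, 582 bases on Psme3) and one over Psmb5, Acin1 and 4930579G18Rik (13150 counts, 64 bases on Psmb5). Which of the genes these reads came from cannot be told apart.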
